A study of Arabidopsis thaliana with 16 samples.

Results

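The genes described here are the 41 Arabidopsis genes for late embryogenesis abundant (LEA) proteins that are not dehydrins. They were taken by locus code from a gene family list, with no measured value used to choose them within the list. The list itself was chosen with earlier results of these data known. The members are 41 of the 27655 genes in the files. They fall into 8 families named by their conserved domains, with 3 genes in LEA_1, 3 in LEA_2, 4 in LEA_3, 19 in LEA_4, 2 in LEA_5, 6 in the seed maturation protein (SMP) family, 2 in PvLEA18 and 2 in AtM. All libraries are labelled as whole germinating seeds of *sweet1*, a T-DNA insertion mutant of the Glc transporter gene *SWEET1* in the Col-0 background. After cold imbibition for 3 d, seeds were kept on ½MS medium in constant light and moved at 24 h after imbibition into liquid ½MS medium for 6 h. That medium held 5 µM ABA with 60 mM Glc (ABA + Glc), 5 µM ABA alone, 60 mM Glc alone or no addition (control), with 4 biological replicates of each. WT libraries were not analysed here, so every comparison is between treatments within the libraries labelled *sweet1*. *SWEET1* itself was at 8.29 to 14.9 TPM with ABA + Glc, 12.98 to 17.1 TPM with ABA, 12.4 to 17.6 TPM with Glc and 10.8 to 13.3 TPM in the control. Transcript assigned to the targeted gene was thus present in every library, which goes against a line without *SWEET1* transcript. The paper, by contrast, detected no *SWEET1* transcript in seeds of its *sweet1* mutant by RT-PCR. With 1 value per gene the reads cannot be placed before or after the insertion, so the genotype is taken from the labels alone.

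LEA proteins are small, very hydrophilic and mostly disordered in solution, and they accumulate in the embryo as it dries. They are linked to the protection of enzymes and membranes against water loss, and their transcripts decline after imbibition unless ABA is present. In seeds their genes are activated by the B3 factor ABI3 and by group A bZIP factors such as ABI5, which bind the ABA response element, whose core is ACGTG. The series asks how Glc alters the ABA response of seeds labelled as mutant in the Glc transporter gene *SWEET1*. In whole seeds, fewer cells of a type and less RNA per cell cannot be told apart.

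Levels are the values deposited under the header TPM, an abundance per transcript length, and replicates are given in the order 1 to 4. The depth of each library is unknown because the values are not read counts, and the sums per library were 951008 to 1053766. A total of 17498 genes had over 0.5 TPM in at least 50% of 14 libraries and were tested on the log2(TPM + 0.5) scale in 1 limma fit. ABA replicate 3 and ABA + Glc replicate 3 have no column in the authors' table of results, so they are printed beside the other 14 but stayed outside this test. Means and SDs are over the 14, with n = 3 for ABA + Glc, n = 3 for ABA, n = 4 for Glc and n = 4 for control. A gene rose or fell where its Benjamini-Hochberg adjusted p was under 0.05 over all genes tested and its log2 fold change was at least 0.289 in size, a 1.22-fold difference. A ± after a log2 fold change is its SE, and every adjusted p below is from this fit. Fold changes are on this log2 scale, which understates the change of genes with low values. Storage protein and oleosin genes, markers of the embryo, summed over 10 genes to 3099 to 3517 TPM with ABA and to 516 to 879 TPM in the control, and 4 of these 10 rose with ABA. Of 4 endosperm markers, the sums were 1364 to 1621 TPM with ABA and 1288 to 1589 TPM in the control. *MAN7* was the 1 of 3 tested endosperm markers that rose with ABA, by 1.502 on the log2 scale (adjusted p = 2.55e-10), to 48.7 ± 3.89 TPM with ABA against 16.9 ± 1.67 TPM in the control. The 4 seed coat markers were at or near 0 in every library, at no more than 0.19 TPM in sum. Their part in the results below was not tested.

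ABA raised most LEA genes in the libraries labelled *sweet1*. Of the 32 members that passed the filter on low values, 27 rose and 2 fell with ABA against the control, while over all genes tested 10.4% rose and 13.3% fell. The median log2 fold change was 3.19 over the 32 members and -0.00 over all genes tested. Of the 27 members that rose, 26 had all 4 ABA libraries above all 4 control libraries, the exception being *M17*. Over all genes, this held for 1603 (88.3%) of the 1815 that rose and for 2734 of the 17498 tested. A single member, AT5G53270, passed the filter only through its treated libraries. With all libraries brought to 1 common sum, the share of risen genes among all genes called was 30.6%, against 43.9% as reported, and the members still numbered 27 risen and 2 fallen.

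**Figure D1:**
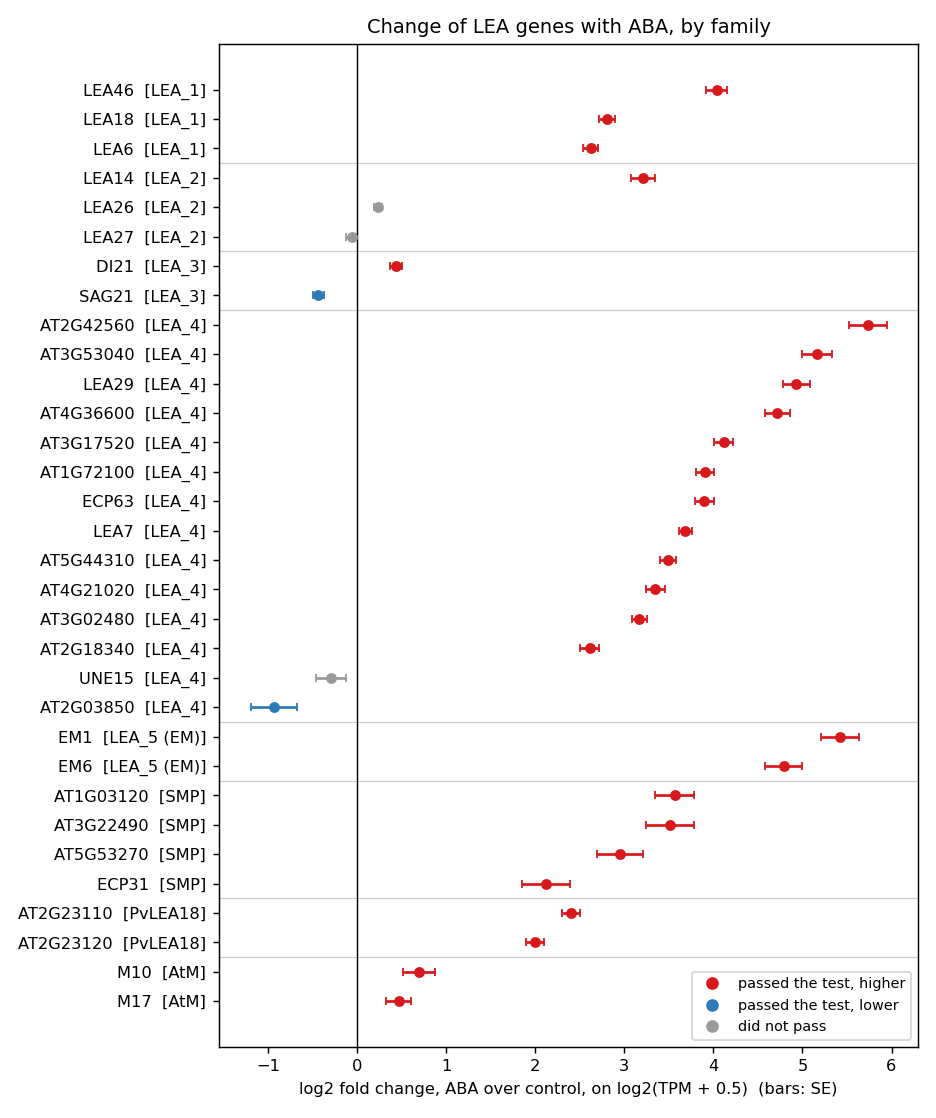
Log2 fold change of the 32 tested LEA genes, ABA over control, on the log2(TPM + 0.5) scale, grouped by family, with SE bars. AT2G42560 at 5.73 and *EM1* at 5.42 lie farthest above 0, and *SAG21* and AT2G03850 are the members that fell.

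The 3 largest rises were those of AT2G42560, *EM1* and AT3G53040, and they are shown with the stretch of genome before each gene together with those of the 2 members that fell. Each window is the 250 bases before the annotated gene start, read 5′ to 3′ on the strand of the gene from the TAIR10.1 assembly. Capitals mark every match to the ACGTG core on either strand. Matches that overlap on both strands count as 1 spot.
*AT2G42560* (chr2:17716913-17717162, minus strand): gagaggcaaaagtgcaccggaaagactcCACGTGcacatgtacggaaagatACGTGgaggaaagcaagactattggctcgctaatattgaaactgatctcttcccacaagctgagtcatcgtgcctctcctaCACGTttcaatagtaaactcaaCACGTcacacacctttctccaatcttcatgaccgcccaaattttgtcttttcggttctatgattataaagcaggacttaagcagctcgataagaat
*EM1* (chr3:19214472-19214721, plus strand): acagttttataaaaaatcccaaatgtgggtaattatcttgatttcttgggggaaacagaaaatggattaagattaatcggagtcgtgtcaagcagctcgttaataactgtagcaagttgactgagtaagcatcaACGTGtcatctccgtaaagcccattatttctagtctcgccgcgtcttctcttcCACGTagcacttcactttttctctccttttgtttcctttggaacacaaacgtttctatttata
*AT3G53040* (chr3:19666498-19666747, minus strand): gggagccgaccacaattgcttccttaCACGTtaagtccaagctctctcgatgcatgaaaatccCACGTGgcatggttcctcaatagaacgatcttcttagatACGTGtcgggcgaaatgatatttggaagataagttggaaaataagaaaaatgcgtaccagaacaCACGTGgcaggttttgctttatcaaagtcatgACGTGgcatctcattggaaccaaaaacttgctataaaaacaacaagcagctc
*AT2G03850* (chr2:1175331-1175580, plus strand): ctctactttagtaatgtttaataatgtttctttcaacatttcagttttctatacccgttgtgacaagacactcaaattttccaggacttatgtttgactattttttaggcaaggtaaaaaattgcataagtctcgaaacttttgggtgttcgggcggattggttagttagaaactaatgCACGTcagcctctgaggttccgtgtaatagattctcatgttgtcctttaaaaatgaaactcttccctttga
*SAG21* (chr4:1047106-1047355, minus strand): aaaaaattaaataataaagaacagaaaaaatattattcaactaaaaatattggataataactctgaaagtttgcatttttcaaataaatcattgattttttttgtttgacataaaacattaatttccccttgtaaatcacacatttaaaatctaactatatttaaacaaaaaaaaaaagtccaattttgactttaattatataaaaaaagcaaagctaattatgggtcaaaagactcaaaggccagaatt
The windows of AT2G42560, *EM1* and AT3G53040 held 4, 2 and 5 such spots. That of AT2G03850 held 1 and that of *SAG21* held 0.

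The LEA_4 family, whose proteins carry short repeated motifs that form helices on drying, held the largest number of risen members. Of its 14 tested genes, 12 rose with ABA and 1 fell. AT2G42560, at chr2:17714638-17716912 (minus strand), was at 320.2, 321, 329.6 and 261 TPM with ABA + Glc, 475, 450.3, 502 and 485 TPM with ABA, 9.11, 11, 12.4 and 8.90 TPM with Glc and 8.22, 4.77, 12.9 and 9.47 TPM in the control. Its ABA mean was 53.2 times its control mean, and it rose by 5.73 ± 0.21 (adjusted p = 8.25e-12) on the log2 scale. The ABA libraries formed the highest group, the ABA + Glc libraries lay below them, and the Glc and control libraries overlapped. AT3G53040, at chr3:19664629-19666497 (minus strand), was at 270.0, 273, 397 and 239.9 TPM with ABA + Glc, 483, 447, 512 and 469 TPM with ABA, 19.2, 20.99, 18.4 and 17.2 TPM with Glc and 15.1, 8.31, 17.5 and 11.04 TPM in the control. It rose with ABA by 5.17 ± 0.17 (adjusted p = 1.59e-12), and its ABA libraries stood far above the control.

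*LEA7* (AT1G52690) and *LEA29* (AT3G15670), both of the LEA_4 family, had the highest means with ABA of all members. *LEA7* was at 2149, 2259.7, 3408 and 2124 TPM with ABA + Glc, 3873, 3614, 3537 and 3636 TPM with ABA, 398, 472, 422 and 412 TPM with Glc and 297, 263, 328 and 267 TPM in the control. ABA + Glc replicate 3 lay just below the ABA libraries, whereas the other ABA + Glc libraries were well below them. The log2 fold change of *LEA7* with ABA was 3.69 ± 0.070 (adjusted p = 2.61e-14). *LEA29* was at 2112, 2326, 2454 and 2104 TPM with ABA + Glc, 3748, 3358, 3825 and 3840.2 TPM with ABA, 190.2, 249.8, 185 and 161 TPM with Glc and 122, 88, 156 and 121 TPM in the control. None of the 4 groups overlapped another, and its log2 fold change with ABA was 4.93 ± 0.15 (adjusted p = 1.03e-12).

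AT3G02480, a short LEA_4 protein gene, was among the 3 highest members in the control. Its values were 1974, 1976, 1570.2 and 2106 TPM with ABA + Glc, 2841, 2834, 2929 and 3397 TPM with ABA, 417, 478, 394 and 359.9 TPM with Glc and 313, 337, 363 and 329 TPM in the control. With ABA its log2 fold change was 3.17 ± 0.084 (adjusted p = 2.91e-13), and ABA replicate 4 was the highest library. AT3G17520 was at 1421, 1498, 1728 and 1337 TPM with ABA + Glc, 2515, 2299, 2379 and 2284 TPM with ABA, 218, 262, 204 and 208 TPM with Glc and 142, 106, 156 and 146 TPM in the control. It rose by 4.11 ± 0.11 (adjusted p = 2.91e-13) with ABA and no 2 groups overlapped. *ECP63* (AT2G36640), named after a carrot embryogenic cell protein, was at 579, 617, 739 and 525 TPM with ABA + Glc, 906, 813, 938 and 836 TPM with ABA, 90.6, 103, 89.4 and 92.6 TPM with Glc and 62.01, 43.4, 64.8 and 59.1 TPM in the control. It rose by 3.90 ± 0.11 (adjusted p = 3.38e-13), again with 4 separate groups. The other LEA_4 members that rose with ABA were AT4G36600 (log2 fold change 4.72), AT1G72100 (3.91), AT5G44310 (3.49), AT4G21020 (3.35) and AT2G18340 (2.61).

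AT2G03850 was the LEA_4 member that fell. It was a low gene, at 3.21, 3.67, 3.64 and 1.52 TPM with ABA + Glc, 2.68, 1.68, 2.24 and 2.34 TPM with ABA, 3.16, 6.94, 3.72 and 4.48 TPM with Glc and 3.87, 4.57, 4.24 and 6.24 TPM in the control. Its log2 fold change with ABA was -0.93 ± 0.26 (adjusted p = 0.011), and all 4 ABA libraries were below all 4 control libraries. This call was lost without ABA replicate 2 (adjusted p = 0.0592). *UNE15* (AT4G13560), the remaining tested member of the family, was at no more than 0.97 TPM in any library and did not pass (log2 fold change -0.29, adjusted p = 0.192).

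The LEA_5 family consists of *EM1* and *EM6*, whose proteins are the most hydrophilic LEA proteins of the seed, and both genes are known targets of ABI5. *EM1* (AT3G51810), at chr3:19214722-19215831 (plus strand), was at 826, 829, 947 and 772 TPM with ABA + Glc, 1284, 1232, 1213 and 1211 TPM with ABA, 55.3, 58.4, 51.99 and 41.7 TPM with Glc and 31.6, 17.98, 47.1 and 24.5 TPM in the control. Its log2 fold change with ABA was 5.42 ± 0.21 (adjusted p = 1.37e-11), and both groups with ABA stood far above both groups without it. *EM6* (AT2G40170), at chr2:16779552-16780368 (minus strand), was at 933, 942, 1112 and 894 TPM with ABA + Glc, 1453, 1391, 1296 and 1487 TPM with ABA, 78.5, 83.4, 87.7 and 56.9 TPM with Glc and 44.4, 36.2, 86.5 and 51.2 TPM in the control. It rose by 4.79 ± 0.21 (adjusted p = 4.56e-11) with ABA. Control replicate 3 was the highest control library for both genes and lay within the range of the Glc libraries.

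All 3 LEA_1 genes rose with ABA. *LEA46* (AT5G06760), at chr5:2089445-2090430 (minus strand), was at 1747, 1948, 1876 and 1851 TPM with ABA + Glc, 3388, 3014, 3185 and 3388 TPM with ABA, 323, 401, 301 and 291 TPM with Glc and 215, 160.5, 236 and 189.8 TPM in the control. Its log2 fold change with ABA was 4.04 ± 0.12 (adjusted p = 4.95e-13). The 4 groups did not overlap, with ABA highest and ABA + Glc next. *LEA18* (AT2G35300), the second highest member in the control, was at 1869, 1927, 2104 and 1796 TPM with ABA + Glc, 2492, 2306, 2378 and 2627 TPM with ABA, 499.7, 599, 504 and 513 TPM with Glc and 349, 307, 425 and 343 TPM in the control. It rose by 2.80 ± 0.088 (adjusted p = 1.16e-12) with ABA. *LEA6* (AT1G32560) was at 826, 952, 1516 and 835 TPM with ABA + Glc, 1229.9, 1124, 1137 and 1206 TPM with ABA, 290.1, 351, 280.2 and 302 TPM with Glc and 197, 172, 224 and 179 TPM in the control. Its ABA + Glc replicate 3 was above every ABA library while its other ABA + Glc libraries were below them all, and its log2 fold change with ABA was 2.62 ± 0.087 (adjusted p = 2.24e-12).

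The SMP and PvLEA18 families rose as well. SMP proteins are related to maize RAB28, and 4 of the 4 tested genes of the family rose with ABA. AT1G03120 was at 26.9, 37.97, 41.5 and 29.8 TPM with ABA + Glc, 61.1, 48.8, 45.2 and 47.2 TPM with ABA, 2, 5.11, 4.09 and 5.12 TPM with Glc and 3.54, 4.43, 3.70 and 4.08 TPM in the control. Its log2 fold change was 3.57 ± 0.22 (adjusted p = 3.51e-09), and the ABA and control libraries did not overlap. AT3G22490 was at 13.9, 13.7, 10.6 and 11.9 TPM with ABA + Glc, 23.6, 20.9, 23.2 and 21 TPM with ABA, 0.74, 2.62, 2.81 and 1.30 TPM with Glc and 1.32, 0.95, 2.06 and 1.67 TPM in the control. It rose by 3.51 ± 0.27 (adjusted p = 5.79e-08). AT5G53270 was at 2.98, 3.19, 3.39 and 1.62 TPM with ABA + Glc, 3.70, 4.22, 3.79 and 5.08 TPM with ABA, 0.29, 0.52, 1.07 and 0.56 TPM with Glc and 0.31, 0, 0 and 0.23 TPM in the control. Since 2 control libraries are listed at 0, its fitted log2 fold change of 2.95 ± 0.26 (adjusted p = 2.69e-07) depends on the pseudocount and gives no size of the rise. Of its 31-base positions, 11.9% are also in its neighbour AT5G53260. *ECP31* (AT3G22500) rose by 2.12.

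The PvLEA18 family is a pair of very small proteins encoded side by side on chromosome 2, with 475 bases between the genes. AT2G23110 was at 241, 237, 296 and 257 TPM with ABA + Glc, 453, 418, 407 and 475 TPM with ABA, 84.5, 118, 93.9 and 80.4 TPM with Glc and 85.2, 75.5, 91.4 and 87.3 TPM in the control. It rose by 2.40 ± 0.10 (adjusted p = 3.7e-11) with ABA, and the Glc and control libraries overlapped. AT2G23120 was at 291, 299.8, 311 and 280.5 TPM with ABA + Glc, 453, 399, 383 and 436 TPM with ABA, 95.7, 124, 99.7 and 88.7 TPM with Glc and 112, 93.8, 124 and 100.2 TPM in the control. Its rise was 1.999 ± 0.10 (adjusted p = 2.82e-10), with the ABA + Glc libraries again below the ABA libraries. Of the positions of 31 bases in the AT2G23120 transcript, 14.9% also lie in another annotated gene on the opposite strand, and no source used here gives the strand setting of the authors' quantification, so its level is uncertain to that extent. AT2G18340 likewise shares 4.4% of its positions with a gene that overlaps it.

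LEA_2, LEA_3 and AtM genes changed less. LEA_2 proteins are atypical in having a stable fold, and of the 3 genes *LEA14* (AT1G01470) alone rose. *LEA14* was at 44.1, 43.1, 35.8 and 42.8 TPM with ABA + Glc, 63.8, 66.3, 60.6 and 63.7 TPM with ABA, 7.70, 7.90, 8.09 and 5.26 TPM with Glc and 6.27, 7.33, 7.88 and 5.06 TPM in the control. Its log2 fold change with ABA was 3.21 ± 0.14 (adjusted p = 4.01e-11), and no ABA library overlapped the control. *LEA26* (AT2G44060) was at 79.9, 77.6, 67.6 and 76.6 TPM with ABA + Glc, 89.7, 90, 79.8 and 86.5 TPM with ABA, 77.3, 71.5, 73.9 and 73.7 TPM with Glc and 81.3, 74.05, 71.9 and 74.8 TPM in the control. Its difference of 0.23 ± 0.044 (adjusted p = 0.000701) was under the fold minimum, and *LEA27* (AT2G46140) did not pass (-0.06, adjusted p = 0.462).

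*SAG21* (AT4G02380), the LEA_3 gene of a mitochondrial protein that is induced in ageing and stressed leaves, was the most abundant member without ABA and went the other way. It lies at chr4:1046042-1047105 (minus strand) and was at 2006, 2056, 1896 and 2167 TPM with ABA + Glc, 2105, 2153, 2004 and 2294 TPM with ABA, 2859.6, 2914, 2816 and 2545 TPM with Glc and 2796, 2932, 3279 and 2818 TPM in the control. It fell by 0.43 on the log2 scale with ABA (adjusted p = 3.32e-05) and by 0.51 with ABA + Glc (adjusted p = 9.83e-06). Every library with ABA was below every library without it. *DI21* (AT4G15910), a drought-induced LEA_3 gene, was at 242, 236, 264 and 260.5 TPM with ABA + Glc, 268, 262, 239 and 282 TPM with ABA, 206, 236, 222 and 192 TPM with Glc and 181, 202, 223 and 197 TPM in the control. Its log2 fold change with ABA was 0.44 ± 0.071 (adjusted p = 0.000175), a small rise, with all ABA libraries above the control libraries.

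The AtM genes *M10* and *M17*, which lie 1998 bases apart on chromosome 2, rose by small amounts. *M10* (AT2G41280) was at 37.5, 52.5, 56.3 and 41.1 TPM with ABA + Glc, 51.1, 44.1, 40.99 and 39.2 TPM with ABA, 36.8, 47.2, 44.5 and 28.2 TPM with Glc and 27.8, 22.6, 36.05 and 24.5 TPM in the control. It rose by 0.70 ± 0.18 (adjusted p = 0.00588) with ABA and by 0.65 ± 0.18 (adjusted p = 0.0122) with ABA + Glc, both against the control. *M17* (AT2G41260) was at 98.7, 97.5, 122 and 103 TPM with ABA + Glc, 88.3, 92.2, 63.7 and 82.4 TPM with ABA, 92.7, 71.99, 78.2 and 64.95 TPM with Glc and 63.2, 53.2, 87.3 and 54.01 TPM in the control. Its ABA and control libraries overlapped. The rise of 0.47 ± 0.14 (adjusted p = 0.0157) with ABA was lost without ABA replicate 2 (adjusted p = 0.0592) and over all 16 libraries (adjusted p = 0.0808), whereas that with ABA + Glc was 0.65 ± 0.14 (adjusted p = 0.00249).

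**Figure D2:**
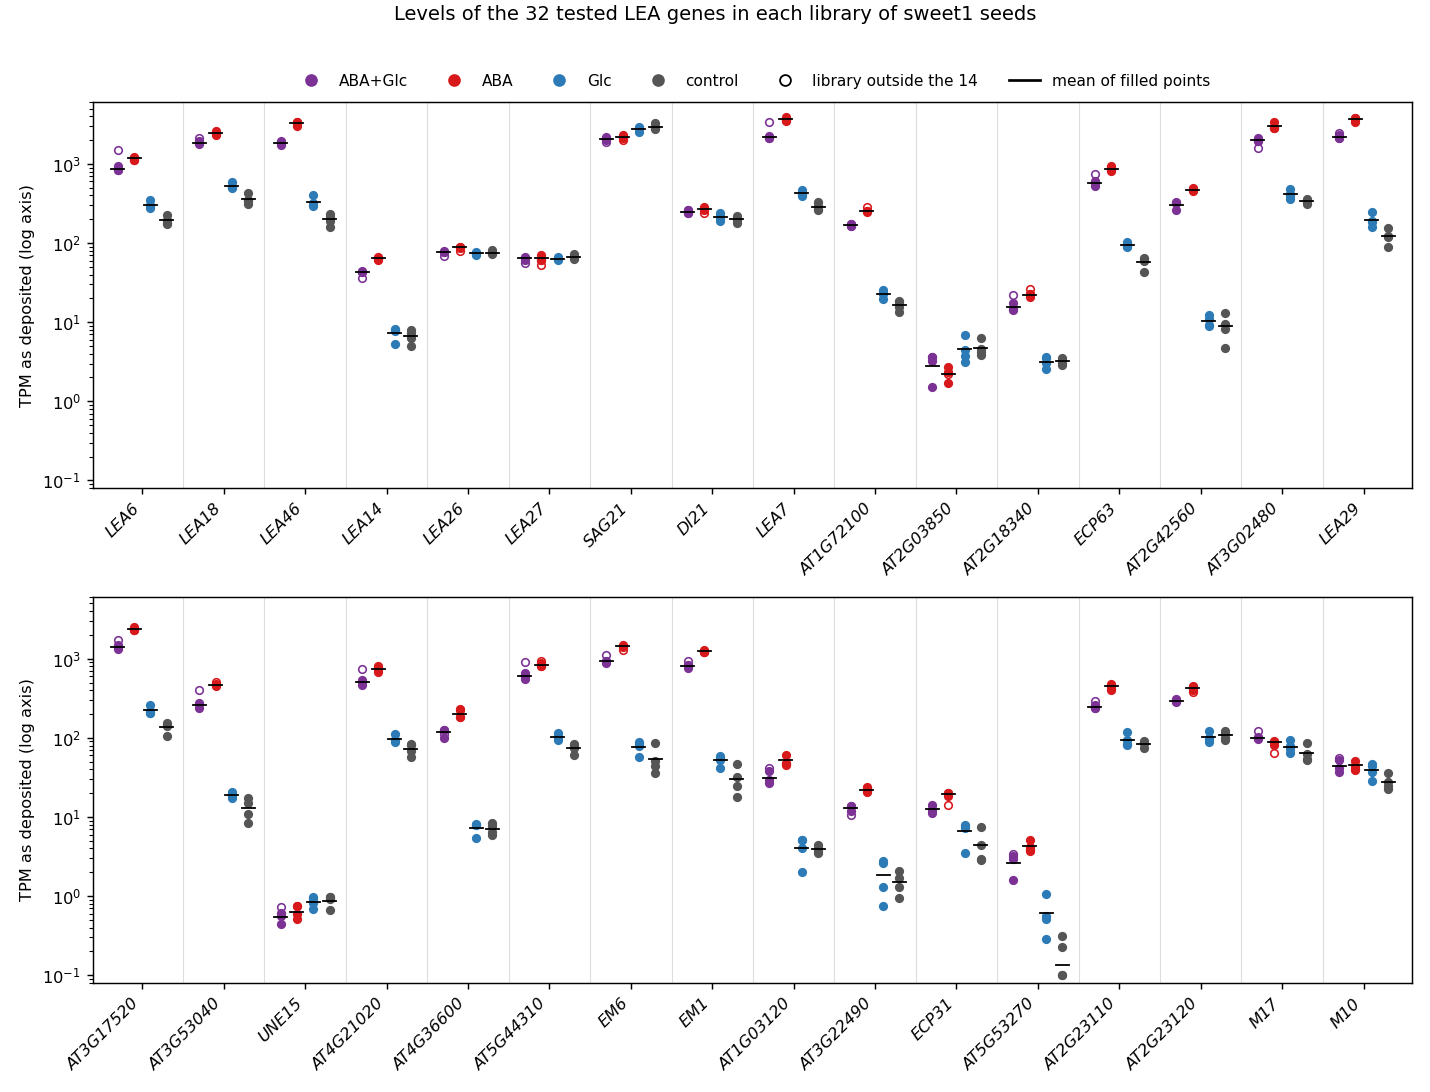
TPM in each library on a log axis for the 32 tested LEA genes, with ABA + Glc, ABA, Glc and control from left to right, bars at the mean of the filled points, hollow points for ABA replicate 3 and ABA + Glc replicate 3, and values under 0.1 drawn at 0.1. In most panels the ABA points are highest and the ABA + Glc points just under them, while *SAG21* has its highest points in the Glc and control libraries.

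Many LEA transcripts were lower with ABA + Glc than with ABA alone. Of the 32 tested members, 17 fell and 0 rose in ABA + Glc against ABA, while 1.91% of all genes tested fell and 0.732% rose. At an unadjusted p under 0.05, 24 members were lower and 0 higher, beside 8.32% and 7.06% of all genes tested. The median was -0.57 over the 32 members and 0.00 over all genes tested. In the 17 members that fell, the ABA + Glc mean was between 54.6% (AT2G23110) and 75.3% (*LEA18*) of the ABA mean. The groups did not overlap for any of the 17 over the 14 libraries, and for 13 of them over all 16. Over all genes, the same held for 334 (99.7%) of the 335 that fell over the 14 libraries and for 268 of them over all 16. The exceptions were *LEA6*, AT4G21020, AT2G18340 and AT5G44310, in which ABA + Glc replicate 3 reached the ABA libraries. Embryo storage markers summed to 2656 to 3147 TPM with ABA + Glc and 3099 to 3517 TPM with ABA, with 0 of 10 risen and 0 fallen (at an unadjusted p under 0.05, 1 was higher and 1 lower). Endosperm markers summed to 1593 to 1786 TPM with ABA + Glc and 1364 to 1621 TPM with ABA.

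AT2G23110 had the largest fall, by 0.87 on the log2 scale (adjusted p = 0.000338), and its neighbour AT2G23120 fell by 0.56 (adjusted p = 0.00792). AT3G53040 and *LEA46* followed, with log2 fold changes of -0.84 ± 0.18 (adjusted p = 0.0164) and -0.82 ± 0.12 (adjusted p = 0.00175). *LEA7* fell by 0.77 (adjusted p = 5.06e-05), and its mean was 2177 ± 72.4 TPM with ABA + Glc and 3708 ± 144 TPM with ABA (SD). AT3G17520, *LEA29*, AT3G02480 and *ECP63* had values of -0.74, -0.74, -0.58 and -0.57 and fell as well. The weakest of the calls named here were those of *LEA14* (-0.57, adjusted p = 0.0439) and *LEA18* (-0.41, adjusted p = 0.0255). The call of *LEA18* was lost when any of 5 of the 6 libraries compared was left out, and *LEA6*, at -0.45 (adjusted p = 0.0143), was lost over all 16 libraries (adjusted p = 0.415).

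Several members with large ABA responses did not pass this comparison, although their means were lower. *EM1* had a log2 fold change of -0.62 (adjusted p = 0.183), *EM6* of -0.64 (adjusted p = 0.147) and AT2G42560 of -0.65 (adjusted p = 0.16), with ABA + Glc libraries below all ABA libraries in each. Over all genes tested, ABA + Glc lay below ABA without overlap in 11.1% over the 14 libraries and in 5.65% over all 16. The SMP genes AT1G03120 (-0.73, adjusted p = 0.12) and AT3G22490 (-0.71, adjusted p = 0.246) did not pass. *SAG21* (-0.07, adjusted p = 0.662), *DI21* (-0.14, adjusted p = 0.433), *M10* (-0.04, adjusted p = 0.955) and *M17* (0.18, adjusted p = 0.626) also did not pass. The count of 17 depended on single libraries. It was 7 without ABA replicate 1, 10 without ABA replicate 4, 9 without ABA + Glc replicate 1 and 8 without ABA + Glc replicate 4. Over all genes tested the number fallen also dropped, from 335 to 192 without ABA replicate 1. The members that fell in every one of these fits were *LEA46*, *LEA7*, AT1G72100, AT3G02480, AT3G17520, AT2G23110 and AT2G23120. With ABA + Glc replicate 3 added to the 14 libraries (a setting added once the values were known) the count was 11.

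ABA + Glc libraries nonetheless stayed well above those without ABA. Against the control, 27 members rose and 1 fell with ABA + Glc, beside 6.95% and 10.1% of all genes tested, with a median of 2.61 over the members. AT2G42560 had a log2 fold change of 5.08 in this comparison and 5.73 with ABA alone, and *EM1* had 4.80 with ABA + Glc and 5.42 with ABA alone. *LEA46* had 3.22 with ABA + Glc and 4.04 with ABA. These comparisons share the control libraries. Against Glc alone, 24 members rose and 1, *SAG21*, fell with ABA + Glc, beside 5.43% and 6.01% of all genes tested. All 24 of these were among the 27 that rose with ABA against the control, which is 88.9% of the second list. That comparison has no library in common with the one against Glc, but both use the spread from the same fit. Over all genes tested 795 were in both lists, 83.6% of those risen with ABA + Glc and 43.8% of those risen with ABA.

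Glc without ABA raised many LEA transcripts by small amounts. Of the 32 tested members, 13 rose and 0 fell with Glc against the control, beside 1.14% and 2.95% of all genes tested, and the median was 0.35 over the members and -0.00 over all genes. At an unadjusted p under 0.05, 17 members were higher and 0 lower, beside 1758 and 2123 of the 17498 genes tested. The rises took in all 3 LEA_1 genes, 9 of 14 LEA_4 genes and *EM1*, and no tested member of LEA_2, LEA_3, SMP, PvLEA18 or AtM passed. *EM1* was highest, at 55.3, 58.4, 51.99 and 41.7 TPM with Glc and 31.6, 17.98, 47.1 and 24.5 TPM in the control, with a log2 fold change of 0.84 ± 0.20 (adjusted p = 0.0168). Its groups overlapped through control replicate 3, and the call was lost without Glc replicate 1 (adjusted p = 0.0503).

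Of the other risen members, 10 had no overlap between Glc and control, but these were picked by the test and the share over all genes was not counted. *ECP63* was at 94.01 ± 6.44 TPM with Glc and 57.3 ± 9.59 TPM in the control (SD), a log2 fold change of 0.72 ± 0.10 (adjusted p = 0.000378). *LEA46* rose by 0.72 ± 0.11 (adjusted p = 0.000884) and AT3G17520 by 0.70 ± 0.10 (adjusted p = 0.000577). For *ECP63*, *LEA46* and AT3G17520 every Glc library was above every control library. *LEA29* rose by 0.70 ± 0.14 (adjusted p = 0.00727), *LEA6* by 0.66 ± 0.081 (adjusted p = 0.000156) and *LEA18* by 0.58 ± 0.081 (adjusted p = 0.000506). *LEA7* rose by 0.56 ± 0.065 (adjusted p = 0.00011) and AT3G53040 by 0.58 ± 0.15 (adjusted p = 0.0337). The Glc and control libraries of AT3G53040 overlapped, as did those of AT3G02480, which was at the fold minimum, at 0.29 ± 0.077 (adjusted p = 0.0324). Of the 13 calls, 9 held whichever library was left out, and those of AT3G02480, AT3G53040, AT4G21020 and *EM1* did not. Over all 16 libraries 10 members rose with Glc. Embryo storage markers were also higher with Glc, with sums of 693 to 1342 TPM against 516 to 879 TPM in the control, and 5 of the 10 rose. Their part in the Glc response of the LEA genes was not tested.

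Most members that rose with Glc alone were lower when Glc was added to ABA. Of the 13 members that rose with Glc alone, 12 fell in ABA + Glc against ABA, which is 92.3% of the first list and 70.6% of the second. These comparisons set different libraries against each other. They come from the same limma fit, which shares the spread of each gene between them, so they are not independent. Over all genes tested 52 were in both lists, 26.0% of the 200 that rose and 15.5% of the 335 that fell. The member that rose with Glc and did not fall in ABA + Glc was *EM1*.

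**Figure D3:**
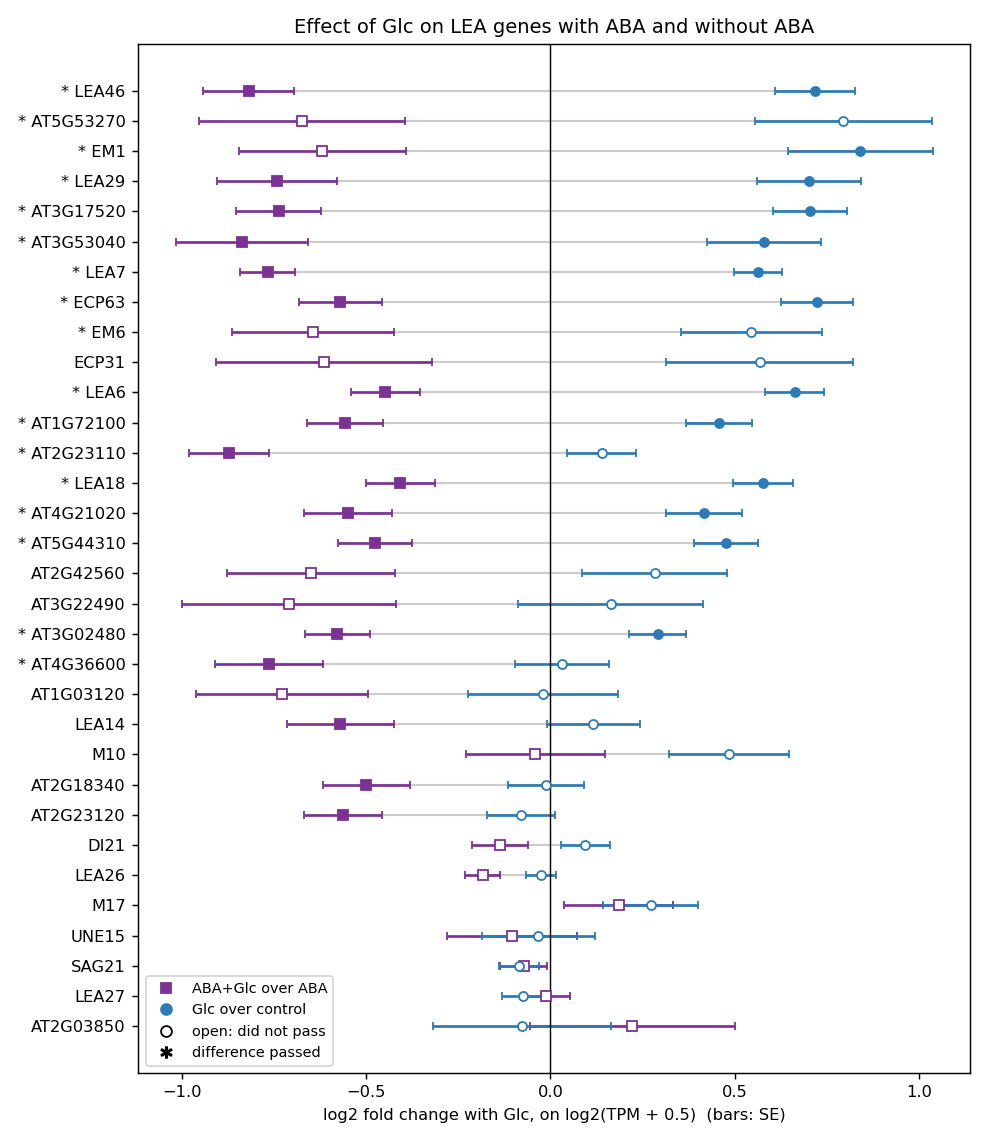
Log2 fold change ± SE of each tested LEA gene for ABA + Glc over ABA (squares) and for Glc over control (circles), with open symbols where the test was not passed and a star where the 2 Glc effects differed by the interaction test. Most circles lie above 0 and most squares below it, and *LEA46* has the widest gap, at -1.54.

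The difference between the 2 Glc effects was tested directly, as the Glc effect with ABA minus that without. It passed below 0 in 17 of the 32 members and above 0 in 0, beside 1.94% and 1.79% of all genes tested, with a median of -0.94 over the members. At an unadjusted p under 0.05, 26 were below 0 and 0 above, beside 8.44% and 9.58% of all genes tested. *LEA46* lay farthest from 0, at -1.54 ± 0.16 (adjusted p = 0.000115). AT5G53270 had -1.47 ± 0.37 (adjusted p = 0.0351), from levels near the filter and with control libraries listed at 0, and its call was lost in 7 of the 14 fits that left out a library. *EM1* followed at -1.46 ± 0.30 (adjusted p = 0.0112), although its fall in ABA + Glc against ABA did not pass by itself. *LEA29* had -1.44 ± 0.22 (adjusted p = 0.00112), AT3G17520 had -1.44 ± 0.15 (adjusted p = 0.000115) and AT3G53040 had -1.42 ± 0.24 (adjusted p = 0.00262). For *EM6* the difference of -1.19 ± 0.29 (adjusted p = 0.0313) was lost in 11 of the 14 fits that left out a library. Of the 17 calls, 14 held in every such fit, the third exception being AT4G36600. Cell type markers also lay below 0 in this difference, in 13 of 13 tested. The median was -0.52 over the 10 embryo storage markers, of which 2 passed, and 1 of 3 endosperm markers passed. Over all genes tested the median was 0.00 and 1.94% passed below 0. How many of all genes lay below 0 by sign was not counted. The part of these markers in the difference was not tested.

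The summed level of the 41 genes shows how much of the transcript pool they took. It was 1.89% to 2.27% of the library sum with ABA + Glc, 2.79% to 2.95% with ABA, 0.615% to 0.725% with Glc and 0.524% to 0.624% in the control. The mean share was 1.97% ± 0.0821 with ABA + Glc and 2.87% ± 0.0755 with ABA (SD, n = 3 each), and 0.659% ± 0.0473 with Glc and 0.562% ± 0.0431 in the control (SD, n = 4 each). The ABA and ABA + Glc ranges were apart from each other and from the rest, while those of Glc and control overlapped. Without *SAG21* the Glc and control ranges did not overlap, at 0.347% to 0.424% with Glc and 0.230% to 0.300% in the control. On that count the share was 1.68% to 2.08% with ABA + Glc and 2.58% to 2.75% with ABA. ABA + Glc replicate 3, at 2.27%, was the highest of its group, and 21 of the 32 tested members were higher in it than in every other ABA + Glc library, while 7 were lower. The same counts were not made over all genes, so they cannot be read as particular to the members. Which members made up the pool differed between treatments. *SAG21* held 10.4% of the member total with ABA + Glc, 7.28% with ABA, 43.6% with Glc and 53.0% in the control. Among all genes *LEA7* ranked 7th by mean with ABA and 524th in the control, and *LEA29* and *LEA46* ranked 8th and 9th with ABA. *SAG21* ranked 41st with ABA and 10th in the control.

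**Figure D4:**
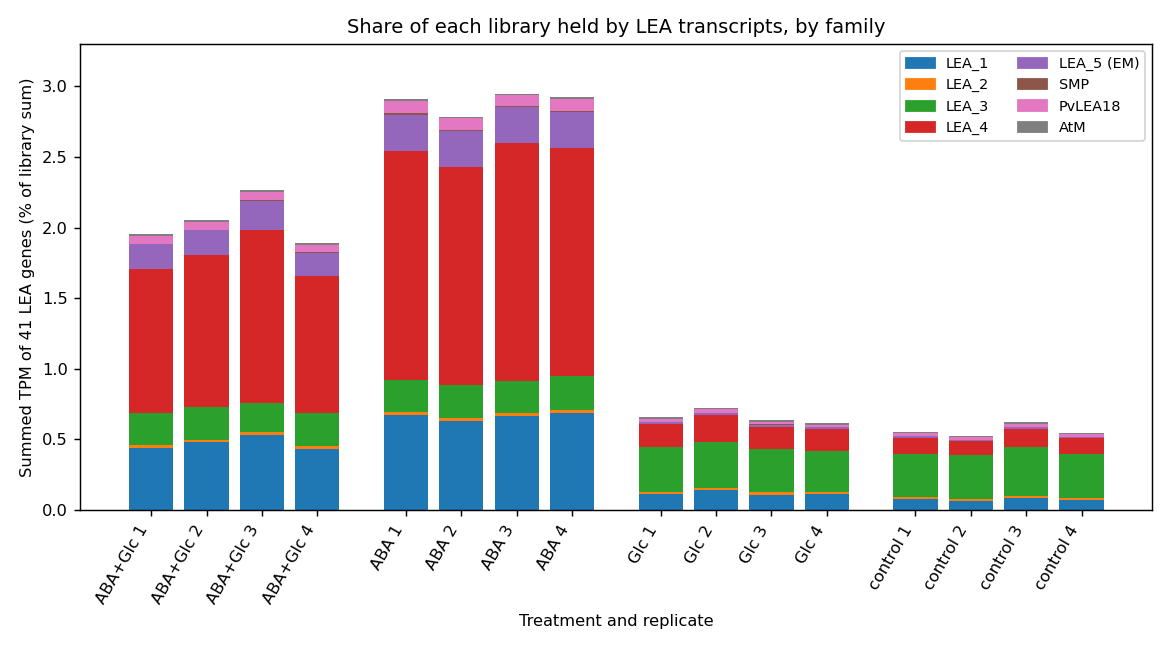
Summed TPM of each LEA family as a percent of the library sum, stacked, for each of the 16 libraries, with ABA + Glc, ABA, Glc and control from left to right. The ABA libraries stand at 2.79% to 2.95% and the control libraries at 0.524% to 0.624%, where LEA_3 holds most of the bar.

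The 9 members that did not pass the filter on low values were at no more than 1.19 TPM in any library. *LEA37* (AT3G53770), AT2G03740 and AT4G13230 are listed at 0 in all 16. *COR15A* (AT2G42540) and *COR15B* (AT2G42530), cold-regulated LEA_4 genes of the chloroplast that stand next to each other on chromosome 2, were among them. *COR15A* was at 1.04, 0.75, 0.21 and 0.07 TPM with ABA + Glc, 0.20, 0, 0.06 and 1.02 TPM with ABA, 0, 0, 0 and 0 TPM with Glc and 0, 0, 0.22 and 0.06 TPM in the control. Its highest libraries were in the groups with ABA, but other libraries of those groups were near 0. *COR15B* reached 0.31 TPM at most, and 28.2% of the 31-base positions of its transcript are shared with an overlapping gene on the other strand. AT5G53260, the SMP neighbour of AT5G53270, was at 0.57, 0.75, 0.87 and 1.19 TPM with ABA + Glc, 0.28, 0.83, 0.23 and 0 TPM with ABA, 0, 0.26, 0.55 and 0 TPM with Glc and 0.31, 0, 0.31 and 0 TPM in the control, with its highest values in the ABA + Glc libraries. *LEA2* (AT1G02820), AT2G33690 and AT5G27980 stayed at or below 0.58 TPM.

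Dehydrins are the LEA proteins left out of the 41, and they serve as the nearest comparison. All 10 dehydrin genes were tested, and 6 rose and 1 fell with ABA, beside 10.4% and 13.3% of all genes tested. Their median log2 fold change with ABA was 2.07. In ABA + Glc against ABA 4 fell and 0 rose, beside 1.91% and 0.732% of all genes tested. AT4G39130 was at 29.03, 27.96, 37.04 and 25.9 TPM with ABA + Glc, 45.6, 29.96, 43.3 and 37.8 TPM with ABA, 1.18, 1.57, 2.73 and 0.28 TPM with Glc and 1.88, 0.21, 1.84 and 0.94 TPM in the control. It had the largest change of the 10 with ABA, 4.61 ± 0.42 (adjusted p = 3.67e-07), from control values near the filter. AT2G21490 was at 641, 680.4, 877 and 626 TPM with ABA + Glc, 1059, 1041, 1084 and 1148 TPM with ABA, 85.1, 105, 87.5 and 87.9 TPM with Glc and 48.7, 36.1, 78.1 and 54.2 TPM in the control, with a rise of 4.36 ± 0.17 (adjusted p = 1.12e-11) and no overlap between ABA and control. *RAB18*, a dehydrin gene widely used as a marker of ABA response, was at 594, 630.0, 721 and 578 TPM with ABA + Glc, 1246, 1259, 1111 and 1208 TPM with ABA, 210.2, 197, 188 and 117 TPM with Glc and 105, 69.7, 180.0 and 95.9 TPM in the control. Its ABA + Glc libraries lay between the ABA and Glc libraries, with log2 fold changes of 3.54 ± 0.23 (adjusted p = 8.38e-09) for ABA over control and -1.04 ± 0.25 (adjusted p = 0.0317) for ABA + Glc over ABA. *XERO1* was at 322, 349, 404 and 338 TPM with ABA + Glc, 628, 573, 594 and 627 TPM with ABA, 70.5, 87.6, 74.6 and 61.5 TPM with Glc and 63.8, 56.2, 66.01 and 55.3 TPM in the control. It had 3.33 ± 0.092 (adjusted p = 4.22e-13) for ABA over control and -0.86 ± 0.10 (adjusted p = 0.000173) for ABA + Glc over ABA. With Glc alone 1 of the 10 dehydrin genes rose and 0 fell, beside 1.14% and 2.95% of all genes tested. The difference between the Glc effects with and without ABA passed below 0 in 4 of the 10 and above 0 in 0. Over all genes tested 1.94% and 1.79% passed, and the median over the dehydrins was -0.57.

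Of 18 genes for factors that act on LEA genes, 11 passed the filter on low values. With ABA 6 rose and 1 fell, beside 10.4% and 13.3% of all genes tested, with a median of 0.44. In ABA + Glc against ABA 2 fell and 0 rose, beside 1.91% and 0.732%, with a median of -0.08. *ABI4* was the gene that fell with ABA (-0.62, adjusted p = 8.28e-08), and *ABI3* rose by 0.44 (adjusted p = 2.39e-06). *ABI3* had means of 119 TPM with ABA + Glc and 118 TPM with ABA, and *ABI4* had 149 and 122 TPM. *ABI5*, the bZIP factor that binds *EM1* and *EM6*, was at 117, 123, 154 and 112 TPM with ABA + Glc, 172, 156, 167 and 158 TPM with ABA, 46.1, 46.7, 40.9 and 45.2 TPM with Glc and 43.8, 33.8, 40.3 and 33.8 TPM in the control. Its groups with ABA stood above the others, and every ABA + Glc library was below every ABA library, with ABA + Glc replicate 3 closest to them. It rose with ABA by 2.09 ± 0.081 (adjusted p = 1.34e-11) and fell by 0.47 in ABA + Glc against ABA (adjusted p = 0.00688). *ABF4*, another bZIP factor, was at 10.2, 10.6, 11.1 and 9.90 TPM with ABA + Glc, 14.6, 15.3, 14.7 and 14.03 TPM with ABA, 6.37, 6.19, 6.46 and 6.63 TPM with Glc and 7.89, 5.95, 6.06 and 6.53 TPM in the control. It rose by 1.10 ± 0.086 (adjusted p = 6.88e-08) with ABA and had -0.50 ± 0.092 (adjusted p = 0.00701) in ABA + Glc against ABA. *EEL*, a bZIP factor that competes with ABI5 at the *EM1* promoter, was at 14.4, 17.04, 17.1 and 13.9 TPM with ABA + Glc, 16, 14.7, 16.6 and 15.5 TPM with ABA, 6.76, 8.62, 7.41 and 8.17 TPM with Glc and 5.52, 7.55, 7.32 and 7.35 TPM in the control. It rose by 1.10 ± 0.11 (adjusted p = 1.01e-06) with ABA, and in ABA + Glc against ABA it did not pass (-0.03, adjusted p = 0.952). *ABF3*, a close relative of *ABF4*, was at 5.92, 6.56, 6.30 and 6.97 TPM with ABA + Glc, 8.42, 7.41, 9.17 and 7.24 TPM with ABA, 5.14, 4.65, 3.93 and 4.53 TPM with Glc and 5.68, 4.15, 4.2 and 4.55 TPM in the control. It rose by 0.68 ± 0.11 (adjusted p = 0.000247) with ABA.

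The 41 genes have coding lengths of 207 to 1908 bases with a median of 510, and 28 of them have 2 exons. Their upstream sequences were compared with those of all genes as a description. The windows of *LEA6*, *LEA26*, AT1G72100, AT2G18340, AT2G33690, *COR15B*, AT1G03120, AT5G27980 and AT5G53270 overlap a neighbouring annotated gene. In the 250 bases before the gene start, on either strand, ACGTG was found in 29 of the 41 genes (70.7%) and in 6288 of 27443 genes with such a window (22.9%). At least 2 spots were found in 21 (51.2%) of the members and in 4.98% of all genes. The G-box CACGTG, which contains the core on both strands, was found in 20 (48.8%) of the members and in 6.49% of all genes. ACCGAC or GCCGAC, the drought and cold element, was in 14 (34.1%) of the members and in 7.09% of all genes. The RY element CATGCA, which B3 factors bind, was in 6 (14.6%) of the members and in 8.43% of all genes.

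Spots were counted by size of response. When grouped by a log2 fold change of 2, a value chosen after the responses were seen, the 23 members that rose by 2 or more included 22 with ACGTG and 19 with at least 2 spots, with a median of 2 spots and a range of 0 to 5. The exception without the core was *ECP31*. The 23 include AT5G53270, with 1 spot, which passed the filter only through its treated libraries. Its fitted size depends on the pseudocount, so its place in this group is uncertain. Of the 4 that rose by less than 2, among them AT2G23120 just under it, 2 held the core, and of the 5 that fell or did not pass, 2 held it, with no gene of either set at 2 spots. Of the 9 that were not tested, 3 held it, and 2 of these, AT2G03740 and AT5G53260, held 2 spots. The 94 matches in the members lay 23 to 244 bases before the start, with a median of 91. AT2G42560, with 4 spots, and AT3G53040, with 5, are the printed windows with the most capitals, and AT4G36600, which is not printed, also held 5.

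**Figure D5:**
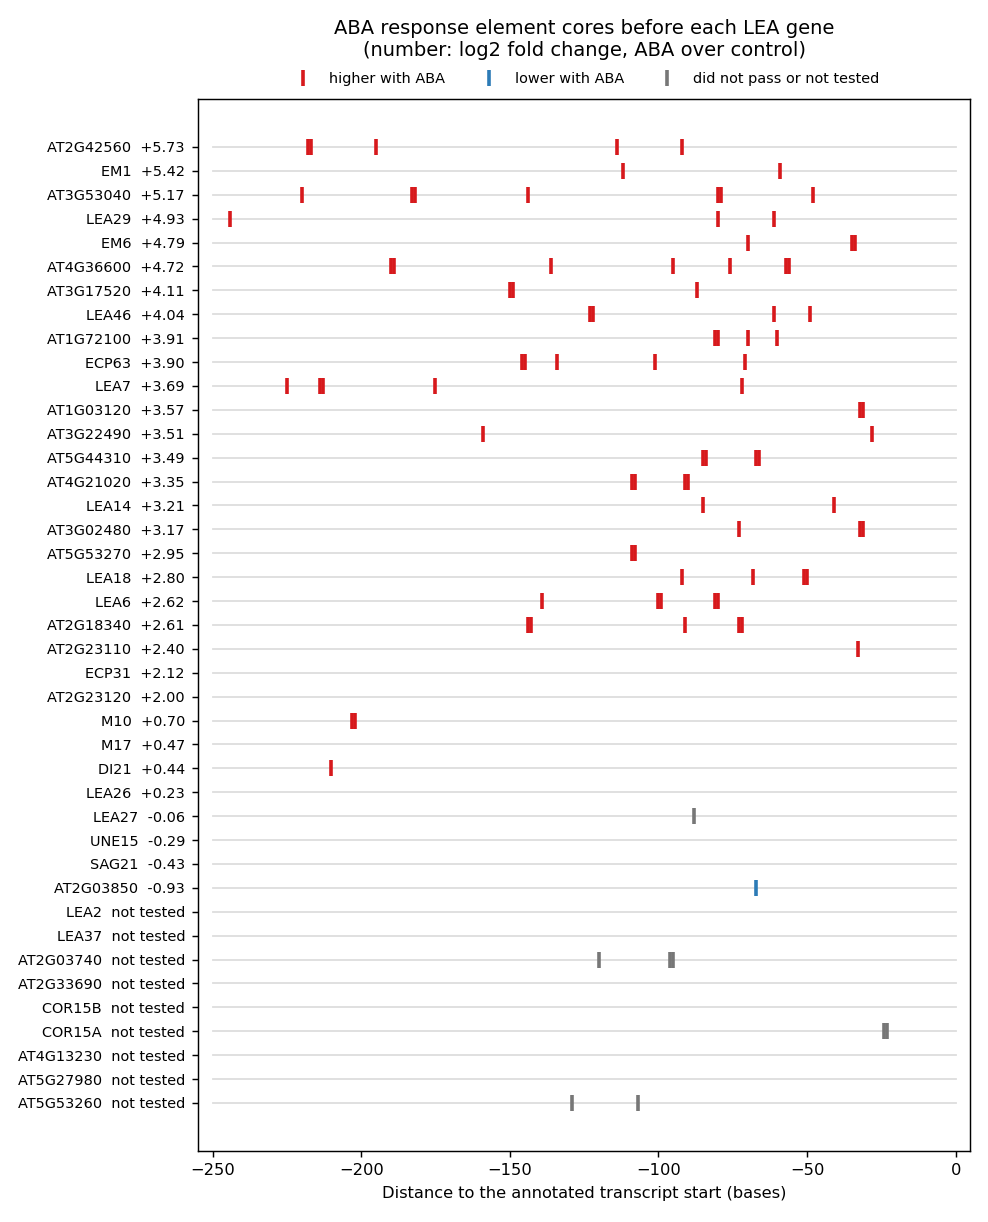
Position of each ACGTG match in the 250 bases before the start of each LEA gene, with genes ordered by their log2 fold change with ABA from highest to lowest. Matches are dense in the upper lines, which hold the strongly raised genes, and sparse in the lower lines, where *SAG21* has none.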

How the data were processed

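Transcripts were measured by RNA sequencing in 16 *sweet1* libraries, grouped by the treatment and replicate number in their titles. The authors trimmed reads with Trimmomatic 0.38 and quantified primary transcripts with kallisto 0.44.0 and sleuth. In the deposited files each gene has 1 score, headed TPM, which the authors had rescaled between libraries by a step that no source used here describes. Without read counts the depth is unknown, and the spread between libraries is the measure of precision. The labels and the methods name different sequencers.

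Values were read with Python 3.11.15 and pandas 2.3.3 and tested with limma 3.58.1 (R 4.3.3), using 1 linear model of the 4 treatments on log2(TPM + 0.5), a variance prior that follows the mean level and no block, with Benjamini-Hochberg adjustment over 17498 genes. The fold minimum is the 0.2 on the natural log scale of the methods. The 2 libraries left out have no column in the authors' table, and the methods say that outliers were removed. The fit was tested on simulated data.

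The list of the 41 genes, the lists of 10 dehydrins, 18 regulators and cell type markers, and the tests were chosen with earlier results of these data known. Within their list no measured value was used to choose the 41 genes. Values in every library are given for the 2 members with the largest change under ABA in each family, the 3 highest under control and under ABA, up to 6 per contrast called against the majority, up to 6 for the interaction and up to 6 under Glc, and up to 4 genes of each list by change under ABA. Values of *COR15A* and AT5G53260, and changes of other members, are added to account for all 41 and were chosen after they were seen. *ABI3* and *ABI4* were also added after their values were seen. Positions and sequences are from TAIR10.1 with its RefSeq annotation, in which all 41 locus codes were found. Motifs were searched on both strands. Protein sequences were not used here. Alternatives were other library sets, leaving out each library, a replicate block, other pseudocounts, filters and scaling, and a fit without the trend.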

Additional observations from a re-analysis of the deposited data

Results flagged for a closer look

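Among the 128 sets of 4 libraries, formed by the 32 tested genes and 4 treatments, 7 held a library far from the other 3, where chance gives about 1 in 20. *LEA7* was at 3407.62 TPM in ABA + Glc replicate 3, against 2123.63 to 2259.68 TPM in the other ABA + Glc libraries. *LEA14* was at 35.77 TPM in the same library, against 42.81 to 44.11 TPM in the other ABA + Glc libraries, so the deviation had opposite directions in these 2 genes. *LEA14* was also at 5.26 TPM in Glc replicate 4, with 7.7 to 8.09 TPM in the other Glc libraries, and AT4G36600 was at 5.46 TPM in that library, with 7.82 to 8.18 TPM in the others. *LEA18* was at 599.03 TPM in Glc replicate 2, with 499.7 to 513 TPM in the other Glc libraries. AT2G42560 was at 260.93 TPM in ABA + Glc replicate 4, with 320.16 to 329.6 TPM in the others of that treatment. AT3G02480 was at 3396.85 TPM in ABA replicate 4, with 2833.62 to 2929.49 TPM in the other ABA libraries.

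For 17 genes the Glc effect with ABA differed from the Glc effect without ABA by the interaction test, each with a value below 0 on the log2 scale. The values were -1.54 for *LEA46*, -1.47 for AT5G53270, -1.46 for *EM1*, -1.44 for *LEA29*, -1.44 for AT3G17520 and -1.42 for AT3G53040. They were -1.33 for *LEA7*, -1.29 for *ECP63*, -1.19 for *EM6*, -1.11 for *LEA6*, -1.01 for AT1G72100 and -1.01 for AT2G23110. The smallest were -0.98 for *LEA18*, -0.97 for AT4G21020, -0.95 for AT5G44310, -0.87 for AT3G02480 and -0.79 for AT4G36600. AT5G53270 was tested only because of its levels in treated libraries, with control values of 0 to 0.31 TPM, and its call was lost in 7 of the 14 fits that left out a library.

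The libraries outside the test also held the LEA signal. The summed level of the 41 genes was 2.95% of the library sum in ABA replicate 3, and for ABA + Glc replicate 3 it was 2.27%, against 0.524% to 0.624% in the control libraries.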

How the results depend on the processing

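Over the 129 changes called among the members, 3179 values were recomputed under the alternatives, of which 3043 kept their call, 136 kept their direction but not the call and 0 reversed. With all 16 libraries the members numbered 10 risen with Glc, 26 risen and 2 fallen with ABA, 13 fallen in ABA + Glc against ABA and 18 below 0 in the interaction. Of members fallen with ABA, 1 remained under a filter of 10 TPM, which removes the low gene AT2G03850. Of members fallen with ABA + Glc against the control, 2 were counted with no filter, without the trend and with ABA replicate 3 added alone, and 2 were counted against Glc without the trend. With ABA + Glc replicate 3 added alone, 11 fell in ABA + Glc against ABA. Both added settings were chosen after the values were seen.

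When libraries were left out in turn, members risen with Glc numbered 10 to 17, members risen with ABA 26 to 27 and fallen 1 to 2, and members risen with ABA + Glc 26 to 27 and fallen 1 to 2 against the control. They numbered 7 to 19 fallen in ABA + Glc against ABA, 23 to 25 risen and 1 fallen against Glc, and 14 to 20 below 0 in the interaction. The second fallen member with ABA was lost without ABA replicate 2. A second one with ABA + Glc appeared without Glc replicate 2 and without ABA + Glc replicate 2. The cause was not tested.

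Same-numbered libraries of different treatments had correlations of their deviations between -0.0646 and 0.1226, with a median of 0.0092. For differently numbered libraries the range was -0.1492 to 0.1059 and the median -0.0021. The correlations thus gave no general sign of pairing by number, and pairing in single genes was not tested. With a replicate block the members numbered 14 risen with Glc, 27 risen and 2 fallen with ABA, 27 and 1 with ABA + Glc against the control, 17 fallen against ABA, 25 risen and 1 fallen against Glc, and 18 below 0 in the interaction.

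Counts over all genes that moved by over 1.5 times were these. With Glc 200 rose, but 117 at a pseudocount of 5, 310 at equal library sums and 129 with ABA + Glc replicate 3 added, and 516 fell, but 324 without control replicate 1 and 340 with ABA + Glc replicate 3 added. With ABA 1815 rose, but 1068 over 10 TPM, and 2324 fell, but 1533 at a pseudocount of 5 and 1292 over 10 TPM. With ABA + Glc against the control 1216 rose, but 694 over 10 TPM, and 1766 fell, but 1162 at a pseudocount of 5 and 931 over 10 TPM. Against ABA 128 rose, but 66 to 85 without ABA replicate 2 or without any of the 3 ABA + Glc libraries and 82 at a pseudocount of 5, and 335 fell, but 192 without ABA replicate 1 and 218 without ABA + Glc replicate 1. Against Glc 951 rose, but 568 over 10 TPM, and 1051 fell, but 649 at a pseudocount of 5 and 574 over 10 TPM. In the interaction 313 were above 0, but 206 without ABA + Glc replicate 1 and 196 with ABA + Glc replicate 3 added. At equal library sums the share of risen genes among those called was 43.1% in place of 27.9% with Glc, 41.5% in place of 27.6% in ABA + Glc against ABA, and 33.1% in place of 47.5% against Glc. Members at low values are limited most, since the counting error of a value under 1 TPM is unknown.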

Other observations

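Among the 41 genes, 6 pairs of neighbours lie within 2307 bases of each other. The PvLEA18 pair AT2G23110 and AT2G23120, 475 bases apart, had log2 fold changes with ABA of 2.40 and 1.999, and *M17* and *M10*, 1998 bases apart, had 0.47 and 0.70. The SMP genes AT3G22490 and *ECP31*, 781 bases apart, had 3.51 and 2.12. AT2G42560, with the largest rise of all 41, lies 2307 bases from *COR15A*, which was not tested at 0 to 1.04 TPM. The cold and drought element ACCGAC or GCCGAC was found before 11 of the 23 members that rose by 2 or more with ABA. It was before 1 of the 4 that rose by less, 1 of the 5 that fell or did not pass and 1 of the 9 not tested. Over all genes it was found in 7.09%, and the split at 2 was chosen after the responses were seen.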
